A study of Mus musculus with 5 samples.

Results

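The genes described here build cholesterol and fatty acids or control that synthesis. They were chosen by name for these roles, with earlier results of these data known. They are 28 of the 32285 genes listed in the matrices: 18 enzymes of the sterol branch, 4 genes of sterol regulation and transport, and 6 enzymes of the fatty acid branch. All 28 were found, and each reached at least 5 CPM in every library. CPM is the number of a gene's unique molecular identifiers (UMIs, each 1 captured RNA molecule) per 1000000 UMIs of the library. Droplet single-cell RNA libraries were made from REX-1 RFP, a mouse embryonic stem cell line with a red fluorescent reporter under the Rex1 (Zfp42) promoter. After a first growth in medium with leukaemia inhibitory factor (LIF), a cytokine that holds these cells in self-renewal, cells spent 72 h in their condition. The condition named ND had no LIF. The condition named NS had LIF and no sorbitol, and the remaining 3 had LIF with sorbitol, a sugar alcohol that makes the medium hyperosmotic, at 200, 250 or 300 mM. The labels do not spell out ND and NS, and all cells are of this single reporter line.

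Each condition is 1 library, so every ratio below sets 1 library against another, has no replicate check and carries no p-value. Condition and library preparation cannot be told apart. The kept barcodes held 7906116 UMIs in ND, 22158653 in NS, and 9218297, 9766705 and 8292073 at 200, 250 and 300 mM sorbitol. Per barcode the median was 827 in ND, 2135 in NS, and 888, 939 and 801 with rising dose. Mitochondrial transcripts took 4.98% of UMIs in ND, 3.98% in NS, and 5.61%, 5.78% and 6.13% over the doses, and ribosomal protein transcripts 25.4% in ND, 28.4% in NS, and 25.3%, 22.5% and 21.3% over the doses. Of the genes taken as a check of the labels, the LIF-responsive gene Socs3 was at 3.67 CPM in ND and 36.5 CPM in NS, and the osmotic stress kinase gene Sgk1 had levels of 25.3 CPM in NS, then 117, 131 and 177 with rising dose. Klf4 and Tbx3, also LIF-responsive, were lower in ND (log2 ratios -1.73 and -1.83), and Slc5a3, Slc6a6 and Akr1b3, of the osmotic response, were higher at each dose. Not all went by the labels: Zfp42 was at 524 CPM in ND and 562 in NS, within 1.5-fold, and Akr1b3 was 1.61-fold higher in ND, which had no sorbitol. Klf4 was also 3.37, 3.99 and 3.88-fold above NS over the doses, and Tbx3 2.66, 3.10 and 3.91-fold, though NS and the sorbitol libraries all had LIF. Socs3 was 1.59-fold above NS at 200 mM and within 1.5-fold at 250 and 300 mM. All 8 embryonic stem cell markers were at 5 CPM or more in every library. The summed level of 8 primitive endoderm markers was 151 CPM in ND, 279 in NS, and 367, 475 and 534 over the doses, most of it from Sparc, and that of 8 trophoblast markers 165 in ND, 148 in NS, and 182, 220 and 228 over the doses. Within the trophoblast list Tfap2c, at 109 CPM in ND, 47.3 in NS, and 86.1, 101 and 103 over the doses, sets the direction in ND, where Hand1, Krt8 and Krt18 were lower than in NS. Under sorbitol this list did not move as a set. Tfap2c and Hand1 were above NS at each dose, and Krt18 was below it. Krt7 and Gata3 were below NS at 200 mM, and within counting error of it at 250 and 300 mM. Gata3 was under 5 CPM in NS and at each dose. Krt18 was at 30.7 CPM in NS, and 10.3, 23.0 and 18.9 over the doses. Krt8 was below NS at 200 mM and above it at 250 and 300 mM, and Cdx2 and Elf5 were under 5 CPM throughout. The 8 fibroblast markers summed to between 3.79 and 9.44 CPM, with Col3a1 and Postn at 0 in all 5 libraries. Within the primitive endoderm list Sparc, Col4a1, Lama1, Gata6 and Amn were above NS at each dose, Gata6 within counting error at 200 mM. Gata4, Sox17 and Dab2 were under 5 CPM in every library, and Gata4 was at 4.20 CPM in NS, and 2.50, 3.69 and 3.14 over the doses. The primitive endoderm and trophoblast sums move with the dose series, as several results below do, and their part in those results was not tested.

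Cholesterol and fatty acids are both built from cytosolic acetyl-CoA. Acetyl-CoA is condensed to mevalonate, then to farnesyl diphosphate and squalene, whose ring-closed product lanosterol is demethylated and reduced to cholesterol. For fatty acids, acetyl-CoA is carboxylated to malonyl-CoA, joined into palmitate, and then elongated and desaturated. The transcription factors encoded by Srebf1 and Srebf2 are held in the endoplasmic reticulum by the Insig and Scap proteins when sterols are plentiful, and on release they switch on the genes of both branches, Srebf1 chiefly those of fatty acids and Srebf2 chiefly those of sterols.

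Some genes of each branch and some regulators were higher in the sorbitol libraries than in NS, and fewer differed between ND and NS. A gene is called higher or lower here when its CPM ratio was at least 1.5-fold and 1 of the libraries had at least 5 CPM. Against NS, 12 members were higher and none lower at 200 mM, 6 higher and none lower at 250 mM, 6 higher and 1 lower at 300 mM, and 1 higher and none lower in ND. Over all genes tested, 26.8% were higher and 11.0% lower at 200 mM, 26.5% and 8.69% at 250 mM, 32.8% and 10.6% at 300 mM, and 10.0% and 7.07% in ND. The share of members called higher at 250 and 300 mM thus lay below that of all genes, and the counts at these doses set the members apart from no other genes. At 200 mM the 12 of 28 members higher stood above the 26.8% of all genes. The members were chosen with earlier results of these data known, and this difference was not tested. The 3 sorbitol ratios share the NS library. Only Hsd17b7, Srebf1, Acly, Acaca and Elovl6 were higher at all 3 doses, and no member climbed at each dose step. The highest level of 15 of the 28 members was in the 200 mM library.

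**Figure D1:**
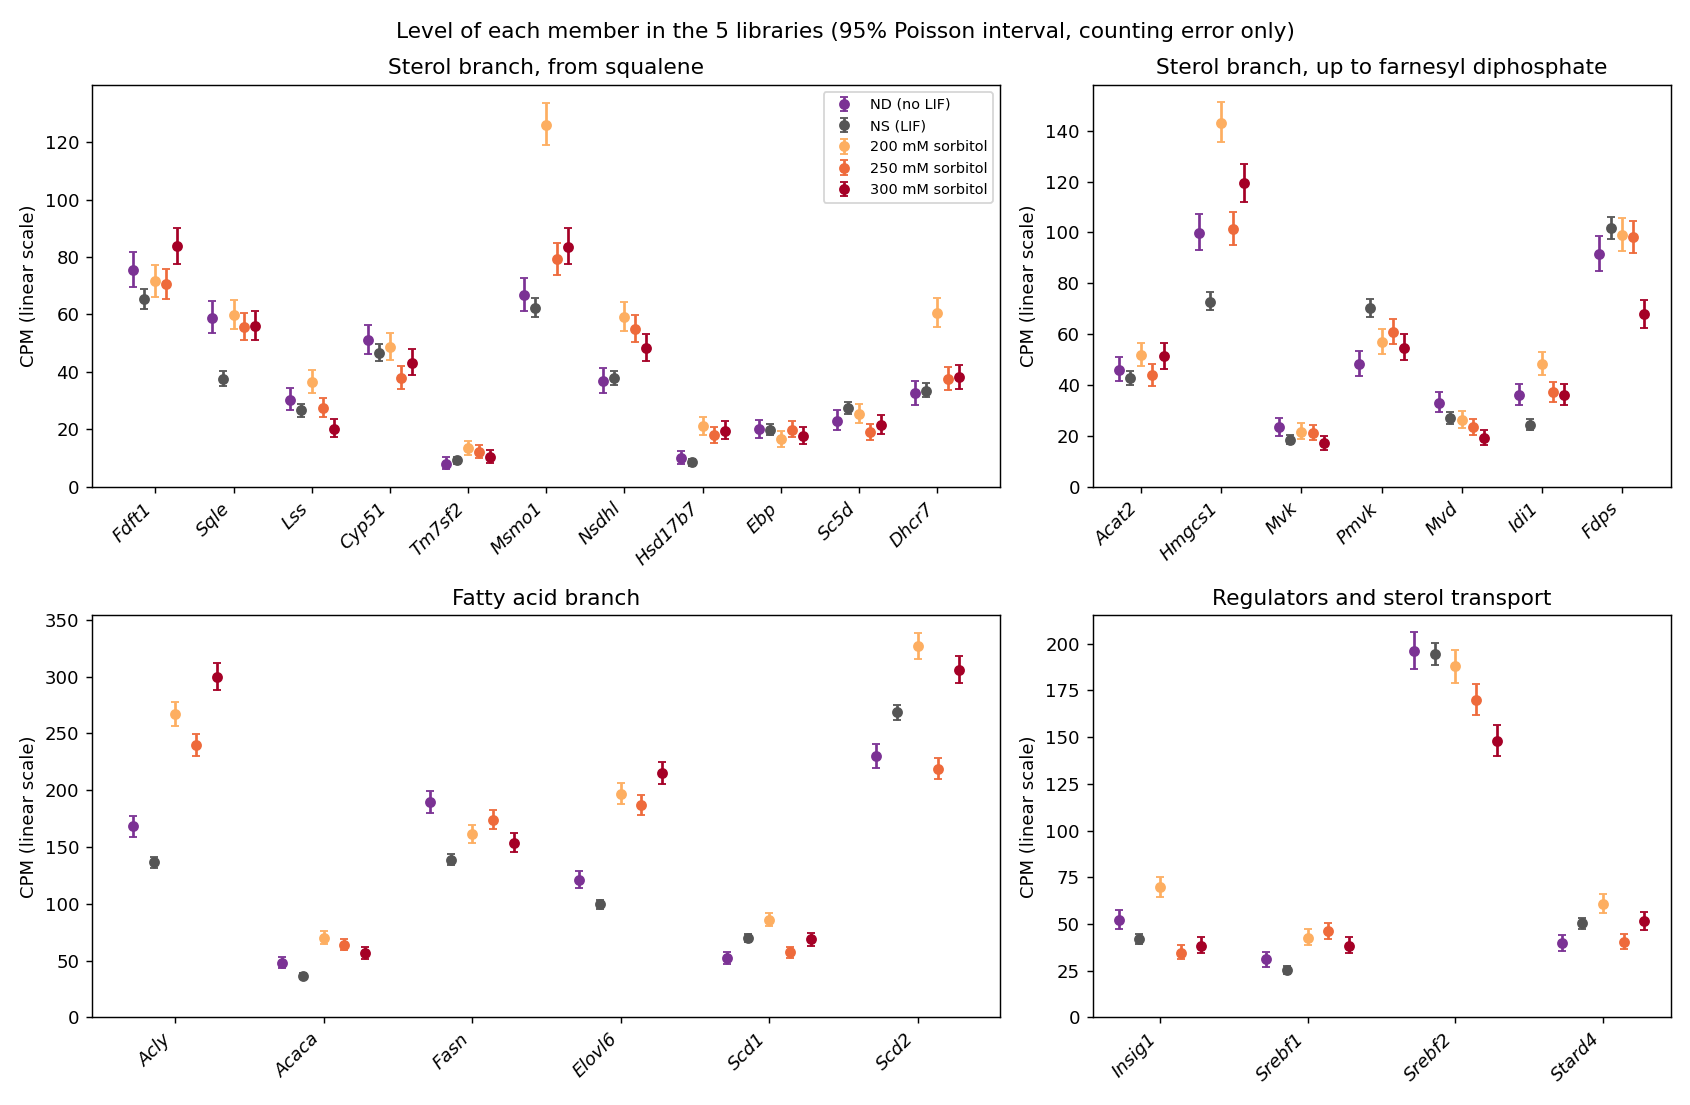
Level of each of the 28 genes in CPM (linear axis) in ND, NS and the 200, 250 and 300 mM sorbitol libraries, with 95% Poisson intervals that cover counting error only. Hmgcs1, Msmo1 and Dhcr7 stand highest at 200 mM (143, 126 and 60.4 CPM), whereas Acly and Elovl6 lie above NS at every dose and Srebf2 steps down to 148 CPM at 300 mM.

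CPM depend on what else is in a library. Rescaling by the median of gene ratios, over 9033 genes, lowers every log2 ratio to NS by 0.08 in ND and by 0.16, 0.20 and 0.25 at 200, 250 and 300 mM, and the 300 to 200 mM ratio by 0.09. The median gene then sits near 0, in place of 0.08 in ND and 0.20, 0.23 and 0.29 over the doses. Under that scaling 9 members were higher at 200 mM, 5 at 250 mM and 3 at 300 mM, with 0, 1 and 6 lower, and ND had none higher and 1 lower (Pmvk). Over all genes under that scaling, 19.3% were higher and 16.4% lower at 200 mM, 16.4% and 15.1% at 250 mM, 20.2% and 18.99% at 300 mM, and 7.27% and 9.68% in ND, so the members' counts at 250 and 300 mM are near or below those shares. The calls lost were Sqle, Nsdhl and Insig1 at 200 mM, Idi1 at 250 mM, Hmgcs1, Srebf1 and Acaca at 300 mM, and Sqle in ND. The lower member at 250 mM was Sc5d, and those at 300 mM were Pmvk, Mvd, Fdps, Lss, Sc5d and Srebf2. Hsd17b7, Acly and Elovl6 were higher at every dose under both scalings.

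The first sterol steps, from acetyl-CoA to farnesyl diphosphate, are covered by 7 members. Hmgcs1 (chr13:119690379-119708260, plus strand, mm10), which encodes the cytosolic HMG-CoA synthase, was at 99.9 CPM in ND, 72.8 in NS, and 143, 101 and 119 over the doses. Its log2 ratio to NS was 0.98 at 200 mM (95% interval 0.87 to 1.08, counting error only), 0.48 at 250 mM, 0.71 at 300 mM and 0.46 in ND. Idi1 (chr13:8885501-8892451, plus strand), the isopentenyl diphosphate isomerase, had a like profile at 36.2 CPM in ND, 24.5 in NS, and 48.3, 37.2 and 36.1 over the doses. Its log2 ratios were 0.56 in ND and 0.98, 0.60 and 0.56 over the doses, so NS was its lowest library. Of the remaining 5 genes of this stretch, Acat2 alone was also lowest in NS and highest at 200 mM, by a smaller margin (42.7 and 51.9 CPM). Fdps, which makes farnesyl diphosphate, was at 91.6 CPM in ND, 102 in NS, and 98.9, 98.2 and 67.8 over the doses. Its ratio at 300 mM, -0.59 (-0.72 to -0.45), only just passes 1.5-fold and makes it the single member called lower than NS. Fdps shares stretches of up to 448 bases, at 95% identity or more, with 6 look-alike gene models, so its counts are uncertain. Mvd, the mevalonate diphosphate decarboxylase, was at 33.1 CPM in ND, 27.0 in NS, and 26.4, 23.3 and 19.2 over the doses (300 mM log2 ratio -0.49, -0.75 to -0.24). Pmvk, the phosphomevalonate kinase, was at 48.3 CPM in ND, 70.1 in NS, and 57.1, 60.8 and 54.6 over the doses, so NS was its highest library. Acat2, the acetoacetyl-CoA thiolase of the first step, and Mvk, the mevalonate kinase, stayed within 1.5-fold in every comparison, with log2 ratios to NS between -0.12 and 0.34.

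Of the members scanned, Hmgcs1 alone held the sterol regulatory element TCACNCCAC, on either strand, in the 250 bases upstream of the RefSeq start. TCACNCCAC is a sequence bound by the Srebf proteins. The RefSeq promoter table (GRCm38.p6) held 22 of the 28 members and not Fdps, Fdft1, Sqle, Stard4, Scd1 or Scd2. Over all 27025 genes of the table, 1.22% held this motif. The box CCAAT, bound by NF-Y, was found on either strand in 14 of 15 sterol members, in 3 of 3 regulators and in 1 of 4 fatty acid members, against 37.5% of all genes and 41.5% of the genes with at least 5 CPM in any library. The box GGGCGG, bound by Sp1, was found in 14 of 15, 3 of 3 and 1 of 4, against 35.4% and 66.4%. NF-Y and Sp1 are known partners of the Srebf proteins at sterol promoters. A match is a description of these letters and not a shown binding site, and the lack of a match says only that these letters are not in the window. The Hmgcs1 window (chr13:119690101-119690350, plus strand) is printed because it holds the sterol regulatory element, TCACCCCAC from -137 to -129. Capitals mark its matches to all 3 motifs.
Hmgcs1: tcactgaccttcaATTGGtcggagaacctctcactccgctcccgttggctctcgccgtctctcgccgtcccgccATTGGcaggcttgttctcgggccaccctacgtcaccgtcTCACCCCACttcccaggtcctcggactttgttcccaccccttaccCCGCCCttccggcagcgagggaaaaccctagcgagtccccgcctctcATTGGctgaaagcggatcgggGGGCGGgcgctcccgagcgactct

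The later sterol steps, from squalene to cholesterol, are covered by 11 members, and 5 of them were higher than NS at 200 mM sorbitol (Sqle, Msmo1, Nsdhl, Hsd17b7 and Dhcr7). Of all genes tested, 26.8% were higher at that dose. Msmo1, the sterol methyl oxidase, was at 66.8 CPM in ND, 62.4 in NS, and 126, 79.2 and 83.6 over the doses. Its log2 ratio to NS was 1.01 at 200 mM (0.90 to 1.13), and 0.34 and 0.42 at the higher doses. Nsdhl, the dehydrogenase that acts after Msmo1, was at 36.8 CPM in ND, 37.8 in NS, and 59.0, 55.1 and 48.4 over the doses. Hsd17b7, the ketosteroid reductase that completes the step, was at 9.99 CPM in ND, 8.53 in NS, and 21.0, 17.9 and 19.5 over the doses. It had the highest ratios to NS of the branch at each dose, at 1.30 (1.01 to 1.60), 1.07 (0.77 to 1.38) and 1.20 (0.88 to 1.51), and 0.23 in ND. Dhcr7, the reductase of a last step to cholesterol, was at 32.5 CPM in ND, 33.5 in NS, and 60.4, 37.6 and 38.1 over the doses, so it was higher at 200 mM alone. Erg28, not a member, encodes the scaffold of the demethylating enzymes. It was at 47.2 CPM in ND, 50.7 in NS, and 39.2, 34.9 and 39.1 over the doses, within 1.5-fold throughout by CPM. Under median-of-ratios scaling Erg28 was lower than NS at 250 mM (0.598-fold) and 300 mM (0.648-fold).

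Squalene epoxidase, encoded by Sqle (chr15:59315077-59331192, plus strand), is a flux-controlling enzyme of the branch, and it was the single member called in ND. Its level was 58.9 CPM in ND, 37.6 in NS, and 59.7, 55.6 and 56.0 over the doses. The log2 ratio to NS was 0.65 in ND (0.48 to 0.81) and 0.66, 0.56 and 0.57 over the doses, so the other 4 libraries sat close together above NS. Under median-of-ratios scaling its ratios were 0.56 in ND and 0.51, 0.36 and 0.32 over the doses, all short of 1.5-fold. Lss, the lanosterol synthase, was at 30.4 CPM in ND, 26.6 in NS, and 36.6, 27.4 and 20.3 over the doses. Tm7sf2, a sterol reductase, was at 8.10 CPM in ND, 9.21 in NS, and 13.5, 12.1 and 10.4 over the doses, with 1.46-fold its highest ratio. Cyp51, the lanosterol demethylase, Ebp, a sterol isomerase, and Sc5d, a sterol desaturase, lay within 1.5-fold of NS in all 4 libraries. The squalene synthase gene Fdft1 did too, at 75.4 CPM in ND, 65.4 in NS, and 71.5, 70.4 and 83.7 over the doses, but its last 500 transcript bases lie opposite Ctsb on the other strand. Ctsb, whose log2 ratio to NS was -0.74 in ND and between -0.04 and 0.07 over the doses, may share reads with it, since the use of strand is not stated. Lss, Cyp51 and Srebf1 overlap 4930483K19Rik, Akap9 and Rai1 in the same way over shorter stretches.

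Taken over the 18 genes, the sterol branch was highest at 200 mM and lower again at 250 and 300 mM. Its summed level was 792 CPM in ND, 732 in NS, and 986, 818 and 808 over the doses. The summed log2 ratio to NS was 0.43 at 200 mM (0.39 to 0.47), 0.16 at 250 mM and 0.14 at 300 mM, and 0.11 in ND. Under median-of-ratios scaling these were 0.27, -0.044, -0.11 and 0.027, so the direction at 250 and 300 mM turns with the scaling. The median member had a log2 ratio of 0.12 in ND and 0.37, 0.14 and 0.18 over the doses, against 0.08, 0.20, 0.23 and 0.29 for the median of all genes. At 200 mM 7 members were higher (Hmgcs1, Idi1, Sqle, Msmo1, Nsdhl, Hsd17b7 and Dhcr7), at 250 mM 2 (Idi1 and Hsd17b7) and at 300 mM 2 (Hmgcs1 and Hsd17b7). The shares of all genes called higher at these doses were 26.8%, 26.5% and 32.8%. Under median-of-ratios scaling Sqle and Nsdhl at 200 mM, Idi1 at 250 mM and Hmgcs1 at 300 mM were within 1.5-fold. Set directly against 200 mM, the 300 mM library had no sterol member higher and 3 lower, namely Lss (-0.85, -1.13 to -0.58), Dhcr7 (-0.66, -0.87 to -0.46) and Msmo1 (-0.59, -0.73 to -0.46). Over all genes tested in that comparison, 5.53% were higher and 4.14% lower.

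**Figure D2:**
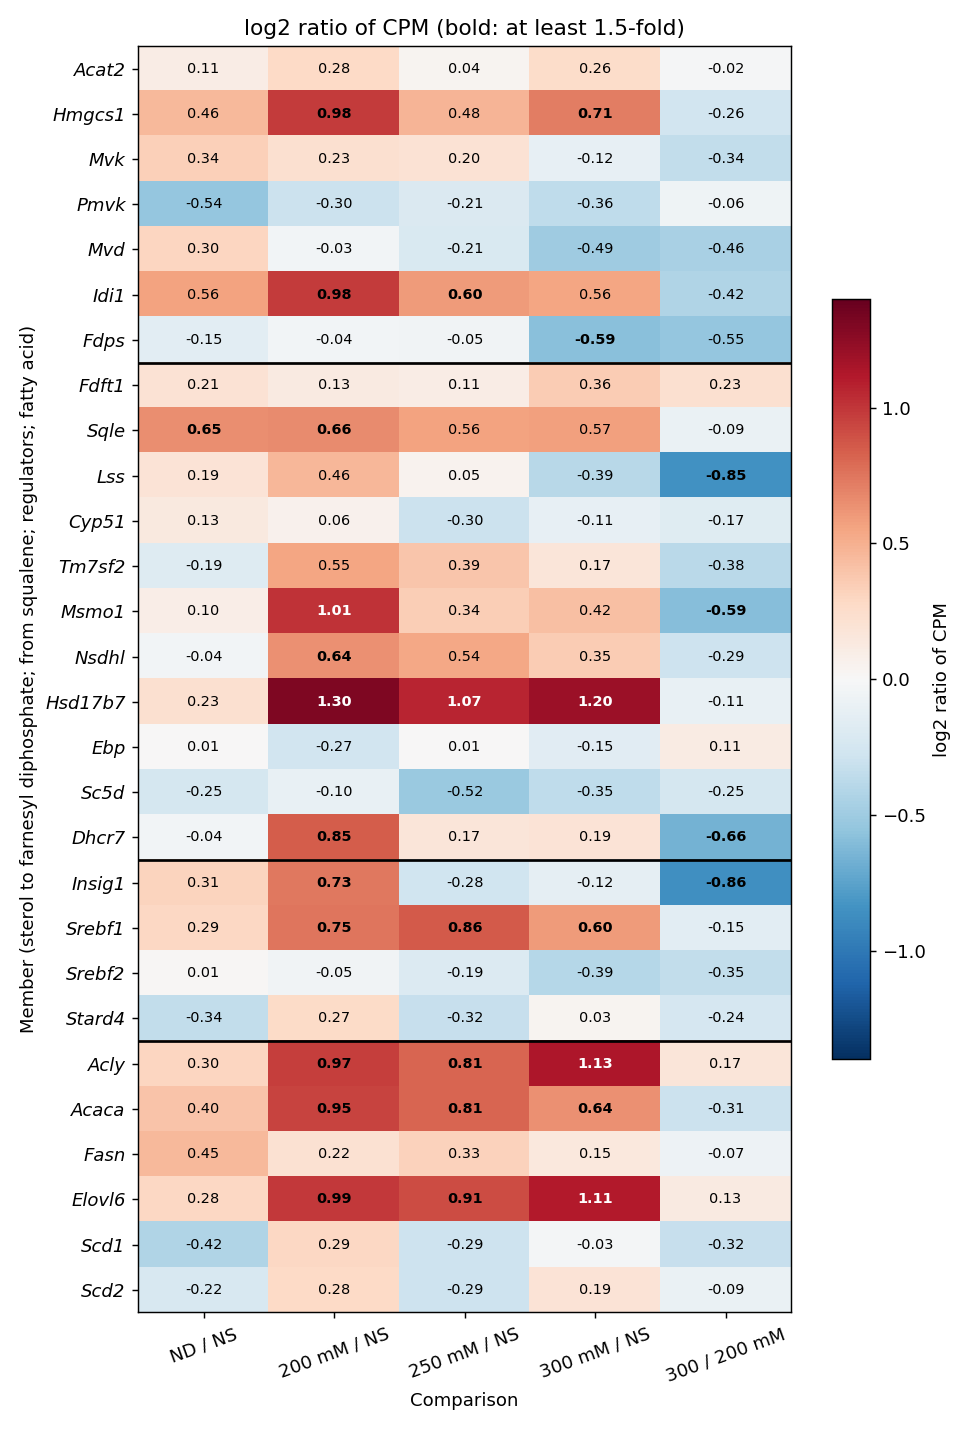
The log2 ratio of CPM for each of the 28 genes (rows, grouped by role) in the 5 comparisons (columns), with bold figures at 1.5-fold or more. The 200 mM column holds 12 bold figures, all positive, and the column of 300 mM against 200 mM holds 4, all negative.

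The 4 regulatory and transport genes had unlike profiles. Srebf1 (chr11:60199089-60222581, minus strand) was at 31.0 CPM in ND, 25.4 in NS, and 42.7, 46.0 and 38.5 over the doses. Its log2 ratio to NS was 0.29 in ND and 0.75 (0.56 to 0.94), 0.86 (0.67 to 1.04) and 0.60 (0.40 to 0.80) over the doses. Srebf2 (chr15:82147181-82205379, plus strand) had levels of 196 CPM in ND, 194 in NS, and 188, 170 and 148 over the doses, with a log2 ratio of -0.39 (-0.49 to -0.30) at 300 mM that is short of 1.5-fold. The relation of these 2 genes does not depend on the scaling: the log2 ratio of Srebf1 exceeded that of Srebf2 by 0.80, 1.05 and 0.99 (0.77 to 1.21 at 300 mM) over the doses and by 0.27 (0.03 to 0.51) in ND. This pair, like the pairs below, was chosen after its values were seen.

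Insig1, whose protein retains Scap and which is itself switched on by the Srebf factors, was at 52.1 CPM in ND, 41.9 in NS, and 69.8, 34.6 and 38.5 over the doses. It was thus higher at 200 mM (log2 ratio 0.73, 0.59 to 0.88) and not at the higher doses, a call lost under median-of-ratios scaling (1.49-fold), and the 300 mM library lay below the 200 mM library by a log2 ratio of -0.86 (-1.06 to -0.66). Insig2, a second retention protein that is not a member, was at 18.7 CPM in ND, 23.0 in NS, and 49.0, 40.6 and 51.6 over the doses. The log2 ratio of Insig2 exceeded that of Insig1 by 0.36, 1.10 and 1.29 over the doses, while in ND the difference was -0.61. Scap, the escort of the Srebf proteins, was at 13.9 CPM in ND, 11.2 in NS, and 20.3, 18.9 and 20.4 over the doses. Stard4, a cytosolic sterol carrier, lay within 1.5-fold of NS throughout, at 39.6 CPM in ND, 50.3 in NS, and 60.6, 40.2 and 51.5 over the doses.

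In the fatty acid branch the same 3 of 6 members, Acly, Acaca and Elovl6, were higher than NS at 200, 250 and 300 mM, and none was lower. Of all genes tested, 26.8%, 26.5% and 32.8% were higher at these doses and 11.0%, 8.69% and 10.6% lower. Acly (chr11:100476353-100528000, minus strand), the ATP citrate lyase that makes cytosolic acetyl-CoA for both branches, was at 168 CPM in ND, 137 in NS, and 267, 240.0 and 299.8 over the doses. Its log2 ratio to NS was 0.97 (0.89 to 1.04), 0.81 (0.73 to 0.89) and 1.13 (1.06 to 1.21), and 0.30 in ND. Acaca, the acetyl-CoA carboxylase, was at 47.9 CPM in ND, 36.4 in NS, and 70.2, 63.9 and 56.8 over the doses. Under median-of-ratios scaling its call at 300 mM was lost (1.31-fold). Elovl6 (chr3:129532355-129638495, plus strand), which elongates palmitate, was at 121 CPM in ND, 99.4 in NS, and 197, 187 and 215 over the doses, with log2 ratios of 0.99, 0.91 and 1.11. These 3 genes encode the enzymes on either side of the synthase. The synthase gene itself, Fasn (chr11:120805846-120824547, minus strand), was at 189 CPM in ND, 139 in NS, and 161, 174 and 154 over the doses. Its log2 ratio was 0.45 in ND (0.36 to 0.54), its highest, and 0.22, 0.33 and 0.15 over the doses. The log2 ratio of Acly exceeded that of Fasn by 0.75, 0.49 and 0.99 over the doses, and in ND the difference was -0.15.

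The upstream windows of Acly (chr11:100528001-100528250, minus strand) and Fasn (chr11:120824548-120824797, minus strand) are printed for their ratios at 300 mM. Of the fatty acid members in the promoter table, Acly had the highest log2 ratio to NS at that dose (1.13) and Fasn the lowest (0.15). Both hold a match to a motif, unlike Acaca and Elovl6. Scd1 and Scd2 were not scanned. Capitals mark GGGCGG or its reverse complement in Acly and CCAAT or its reverse complement in Fasn, where a forward and a reverse match overlap in CCAATTGG. Neither holds TCACNCCAC, which says only that these letters are not in this window.
Acly: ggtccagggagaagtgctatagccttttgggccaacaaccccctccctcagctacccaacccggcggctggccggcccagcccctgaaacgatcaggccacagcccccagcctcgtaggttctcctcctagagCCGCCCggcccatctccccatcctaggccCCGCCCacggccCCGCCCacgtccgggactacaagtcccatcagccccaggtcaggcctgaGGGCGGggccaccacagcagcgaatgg
Fasn: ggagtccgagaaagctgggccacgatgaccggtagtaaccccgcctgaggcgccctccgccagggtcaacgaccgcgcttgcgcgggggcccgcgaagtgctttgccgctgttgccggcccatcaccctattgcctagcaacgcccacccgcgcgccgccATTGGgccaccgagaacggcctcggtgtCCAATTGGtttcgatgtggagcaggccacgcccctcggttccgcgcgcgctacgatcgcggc

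Scd1 and Scd2, the stearoyl-CoA desaturases that turn saturated into monounsaturated chains, are neighbours on chromosome 19 (Scd1 at chr19:44394455-44407879, minus strand, and Scd2 at chr19:44293674-44306864, plus strand). Scd1 was at 52.2 CPM in ND, 70.1 in NS, and 85.9, 57.1 and 68.6 over the doses, and Scd2 at 229.7 CPM in ND, 268 in NS, and 327, 219 and 306. Neither reached 1.5-fold in any comparison. Both were highest at 200 mM and lay below NS in ND and at 250 mM, and the log2 ratios of the pair differed by -0.20 in ND and by 0.01, 0.00 and -0.22 over the doses. The last 500 bases of neither transcript matched another transcript over 90 bases or more at 95% identity. The log2 ratio of Elovl6 exceeded that of Scd2 by 0.51 in ND and by 0.70, 1.21 and 0.92 over the doses.

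As a whole the fatty acid branch summed to 808 CPM in ND, 749.5 in NS, and 1108, 940.1 and 1100.0 over the doses. The summed log2 ratio to NS was 0.56 (0.53 to 0.60), 0.33 (0.29 to 0.36) and 0.55 (0.52 to 0.59) over the doses and 0.11 (0.07 to 0.15) in ND, and it stayed positive, at 0.41, 0.12, 0.30 and 0.024, under median-of-ratios scaling. The median member had log2 ratios of 0.62, 0.57 and 0.42 over the doses and 0.29 in ND, above the median of all genes in each. Scd2 gave 28.4% of the branch's UMIs in ND, 35.8% in NS, 29.5% at 200 mM and 27.8% at 300 mM. Against 200 mM, the 300 mM library had no fatty acid member past 1.5-fold, with a summed log2 ratio of -0.01 (-0.05 to 0.03).

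The balance of the branches, which does not depend on the scaling, lay furthest towards fatty acid genes at 300 mM sorbitol. For each fatty acid UMI there were 0.979 sterol UMIs in ND (0.946 to 1.01), 0.977 in NS (0.956 to 0.999), 0.890 at 200 mM (0.865 to 0.915), 0.870 at 250 mM (0.845 to 0.897) and 0.734 at 300 mM (0.711 to 0.758). The ND and NS intervals overlap, the 200 and 250 mM intervals overlap each other and lie below NS, and the 300 mM interval lies below all the others. Acly, which makes acetyl-CoA for both branches, is counted here with the fatty acid genes. With Acly left out, the summed ratio of the fatty acid genes to NS was close to that of the sterol genes at 200 and 250 mM. At 300 mM it stayed above it. Barcodes thinned to 500 UMIs each carried on average 0.390 sterol UMIs in ND, 0.363 in NS, and 0.499, 0.411 and 0.403 over the doses, and 0.394 fatty acid UMIs in ND, 0.385 in NS, and 0.558, 0.471 and 0.545. The variance of these counts over barcodes divided by their mean lay between 0.984 and 1.04, where counting alone gives a ratio of 1. With means this low, the ratio could show little of any spread between cells, so nothing on that spread is concluded from it.

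**Figure D3:**
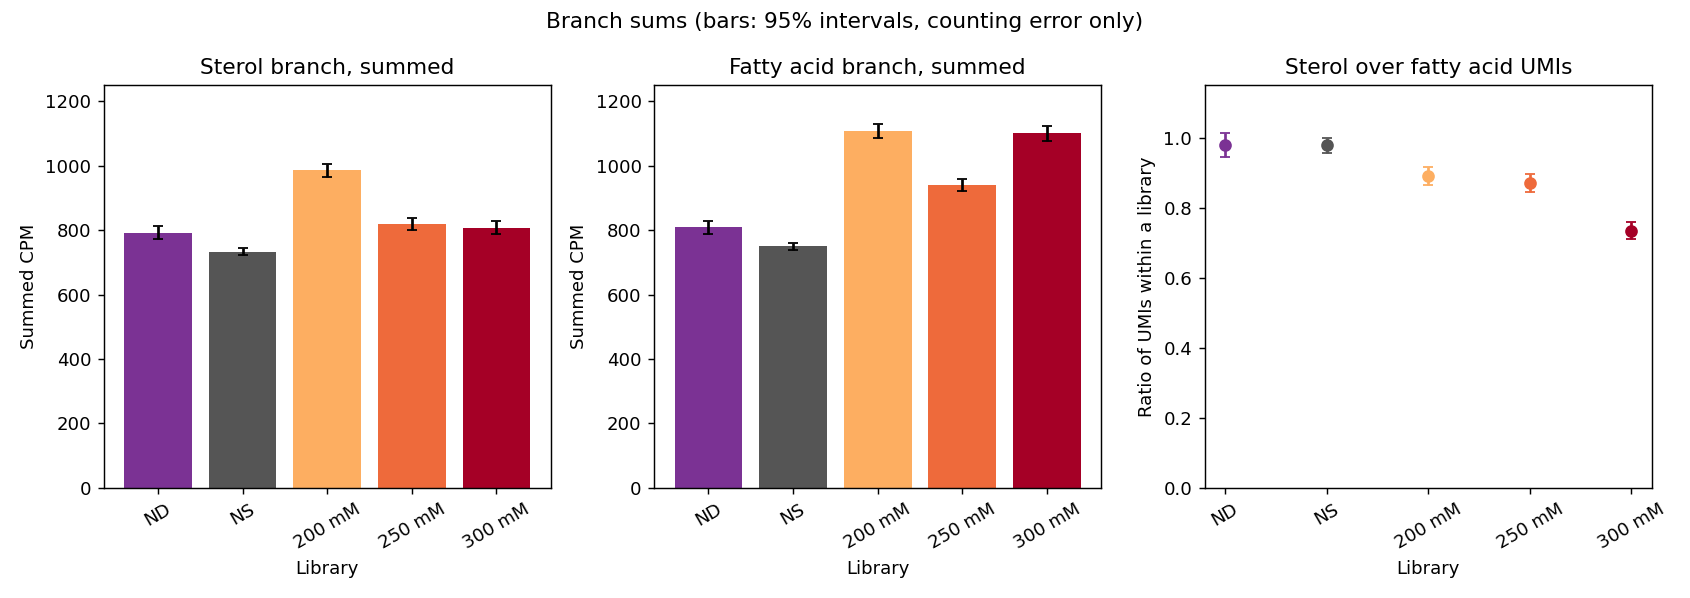
Summed CPM of the 18 sterol genes (left) and of the 6 fatty acid genes (middle), and sterol UMIs per fatty acid UMI (right), in ND, NS and the 3 sorbitol libraries, with 95% intervals for counting error only. The sterol sum peaks at 200 mM (986 CPM), the fatty acid sum stays above NS at all doses, and the ratio is lowest at 300 mM (0.734).

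Of 42 other genes of sterol and fatty acid metabolism, chosen for their roles with earlier results of these data known, 40 reached 5 CPM in at least 1 library. Against NS, 4 were higher and 3 lower in ND, 15 higher and 2 lower at 200 mM, 13 higher and none lower at 250 mM, and 13 higher and none lower at 300 mM. Of all genes tested, 10.0% were higher and 7.07% lower in ND, 26.8% and 11.0% at 200 mM, 26.5% and 8.69% at 250 mM, and 32.8% and 10.6% at 300 mM. The count of higher genes at 300 mM is thus near the share of all genes. Under median-of-ratios scaling the counts of this wider list became 4 and 4, 12 and 2, 8 and 3, and 11 and 5, to be read against the shares of all genes given above for that scaling. Their median log2 ratio was -0.018 in ND and 0.25, 0.30 and 0.35 over the doses, against 0.08, 0.20, 0.23 and 0.29 for all genes.

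Genes of sterol export, trafficking and storage in this wider list had ratios on both sides of NS. Abca1 and Abcg1, the cholesterol efflux pumps, and Mylip, a ubiquitin ligase, are known targets of the oxysterol receptors. Abca1 was at 2.53 CPM in ND, 8.08 in NS, and 23.6, 18.9 and 26.7 over the doses, a 3.30-fold ratio to NS at 300 mM and 0.313-fold in ND. Abcg1 was at 20.2 CPM in ND, 8.89 in NS, and 27.3, 22.1 and 29.5 over the doses, so these pumps stood on opposite sides of NS in ND and on the same side under sorbitol. Mylip was at 6.20 CPM in ND, 4.83 in NS, and 21.7, 13.1 and 19.9 over the doses. Npc1, which moves cholesterol out of lysosomes, was higher in all 4 libraries, at 39.6 CPM in ND, 18.6 in NS, and 45.6, 38.2 and 47.9 over the doses. Other trafficking genes had lower levels. Npc2, which works with Npc1, was at 171 CPM in ND, 199.9 in NS, and 160.4, 157 and 173 over the doses, within 1.5-fold throughout. Tmem97, which encodes a partner of Npc1, was lower by CPM at 200 mM (log2 ratio -0.60, -0.72 to -0.48) and within 1.5-fold at 250 and 300 mM (-0.43 and -0.41). Under median-of-ratios scaling Tmem97 was lower at each dose (-0.76, -0.63 and -0.66). Soat1, which esterifies cholesterol for storage, had log2 ratios of 0.27, -0.26 and -0.21 over the doses. The oxysterol receptor gene Nr1h2 stayed within 1.5-fold and Nr1h3 was under 5 CPM everywhere.

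Among genes that feed the synthesis, Idh1, which makes cytosolic NADPH, was at 62.4 CPM in ND, 59.3 in NS, and 146, 159 and 191 over the doses, higher at each successive dose. Acss2, which makes acetyl-CoA from acetate, was at 5.19 CPM in ND, 8.71 in NS, and 17.8, 15.5 and 15.9 over the doses. Acsl4, which activates polyunsaturated fatty acids, was at 72.2 CPM in ND, 54.2 in NS, and 167, 157 and 140.5 over the doses, and Acsl3, of the same family, was also higher at each dose. Slc25a1, the mitochondrial citrate carrier that supplies Acly, lay within 1.5-fold in all comparisons (log2 ratios -0.10 to 0.06). The elongase Elovl5 was higher at each dose (log2 ratios 0.89, 0.64 and 1.06). Under median-of-ratios scaling Elovl5 and Acsl3 at 250 mM were within 1.5-fold. The desaturase Fads2 was higher in ND (0.70, 0.55 to 0.84), with log2 ratios of -0.27, -0.20 and -0.18 over the doses.

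**Figure D4:**
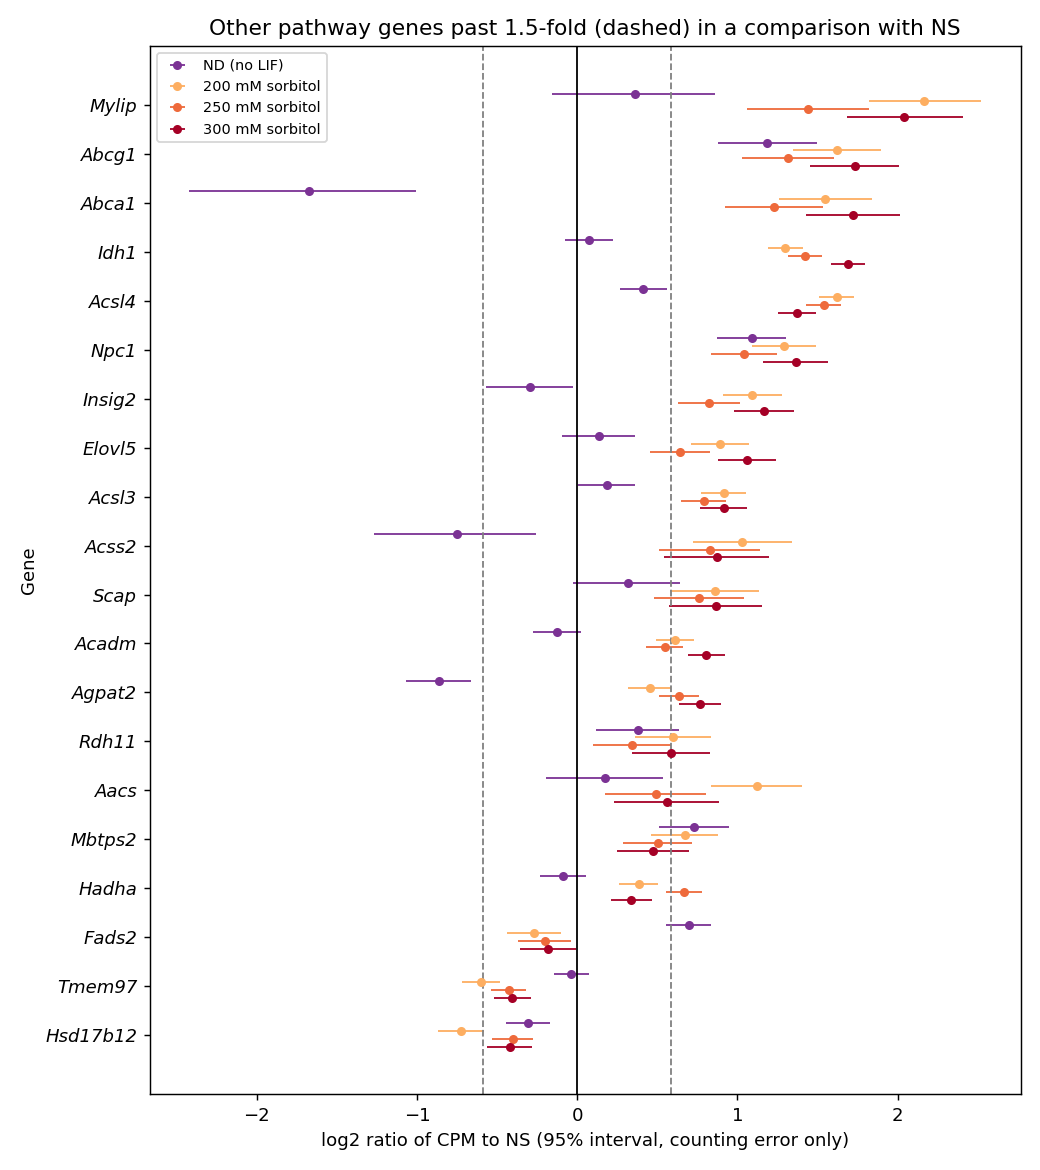
The log2 ratio of CPM to NS for the 20 other pathway genes past 1.5-fold (dashed lines) in at least 1 of ND, 200, 250 and 300 mM sorbitol, with 95% intervals for counting error only. Mylip, Abcg1 and Abca1 have the highest ratios at 300 mM (2.04, 1.73 and 1.72), and Abca1 in ND lies furthest below NS (-1.68).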

How the data were processed

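The 28 genes and the lists beside them were chosen with earlier results of these data known. The deposited matrices hold unnormalized UMI counts for every gene in each barcode, and Cell Ranger 6.0.1 produced them, per the file headers. Seurat 4.1.1, R 4.1.2 and mm10 are named in the submitters' processing notes without roles. The labels' extraction text names Trizol lysis and a Lexogen kit, which is not how droplet matrices arise. How barcodes were selected, the annotation and the use of strand are not stated in these sources.

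Each matrix held 10000 barcodes. A barcode was kept if it had 500 genes or more and no more than 20% mitochondrial UMIs (9240 in ND, 10000 in NS, and 9985, 10000 and 9849 at 200, 250 and 300 mM). Each pair of libraries shared 34 to 54 barcode sequences. No doublet caller was run. UMIs were summed per library and scaled to CPM. Levels carry exact Poisson and ratios exact conditional binomial 95% intervals, which cover counting error only. All 28 members are named, and other pathway genes past 1.5-fold could be named, with some that stayed within it, chosen after their values were seen. Counts under 3 UMIs were set to a floor of 3 UMIs in ratios, and every member lay above it in each library. Some pathway genes are not reported here. Gene positions come from GENCODE M21 (mm10), 1-based, and promoters from RefSeq (GRCm38.p6). Python 3.11.15, numpy 2.4.6, scipy 1.17.1, pandas 2.3.3, matplotlib 3.10.9 and blastn 2.17.0 were used. Alternatives were median-of-ratios scaling, other totals, barcode filters, thinning, thresholds and branch memberships.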

Additional observations from a re-analysis of the deposited data

How the results depend on the processing

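No paired analysis was possible because each condition has 1 library, so no replicate was left out. Of the values of single members under the alternatives, 613 moved by less than the counting error and 87 by more, and no called ratio changed sign.

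Counts of members called depended on the scaling and the fold. Median-of-ratios scaling gave, for sterol members, 0 higher and 1 lower in ND, 1 higher and 1 lower at 250 mM, and 1 higher and 5 lower at 300 mM. Totals without mitochondrial and ribosomal protein genes gave 1 sterol member higher and 1 lower at 250 mM and 2 lower at 300 mM. Thinned barcodes gave 1 sterol member lower at 250 mM. Leaving out the deepest 5% of barcodes gave 2 sterol members higher in ND. A minimum of 20 CPM gave 1 sterol member higher at 250 mM and 1 at 300 mM. At a threshold of a 25% higher level, or the inverse, sterol members were 4 higher and 1 lower in ND, 7 higher and 1 lower at 250 mM, 7 higher and 5 lower at 300 mM, and 8 lower at 300 against 200 mM. Fatty acid members at that threshold were 2 higher and 1 lower in ND and 1 lower at 300 against 200 mM. At 2-fold, sterol members were 0 higher in ND, 2 at 200 mM, 1 at 250 mM and 1 at 300 mM, with 0 lower at 300 mM and 0 lower at 300 against 200 mM, and fatty acid members were 0 higher at 200 and at 250 mM. The share of all genes was computed at 1.5-fold only, under CPM and median-of-ratios scaling. The counts under the other settings therefore describe the members alone and do not set them apart from other genes.

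Summed log2 ratios under median-of-ratios scaling were, for the sterol branch, 0.027 in ND, 0.27, -0.044 and -0.11 over the doses, and -0.38 at 300 against 200 mM. For the fatty acid branch they were 0.024, 0.41, 0.12, 0.30 and -0.10. Without mitochondrial and ribosomal protein genes in the totals, the sterol sum was 0.070 in ND, 0.076 at 250 mM, 0.039 at 300 mM and -0.36 at 300 against 200 mM, and the fatty acid sum 0.067 in ND, 0.24 at 250 mM, 0.45 at 300 mM and -0.081 at 300 against 200 mM. Thinning gave the fatty acid sum 0.033 in ND and 0.50 at 300 mM. With the regulators counted in, the sterol sum was 0.36, 0.061 and 0.037 over the doses. Without Acly the fatty acid sum was 0.063 in ND, 0.46, 0.19 and 0.38 over the doses, and -0.072 at 300 against 200 mM. The cause of these moves was not tested. Depth limits Tm7sf2 and Hsd17b7 most, which have the fewest UMIs of the 28 genes over the 5 libraries.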
